A study of Homo sapiens with 3 samples.

Results

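The epithelial keratins were followed through 3 Affymetrix HG-U133 Plus 2 arrays, as a set of 10 genes given by symbol (KRT7, KRT8, KRT10, KRT13, KRT15, KRT18, KRT19, KRT23, KRT80 and KRT81). All probe sets that the platform annotation gives to 1 of these genes alone were taken. They numbered 15, from 9 genes, out of 41091 such probe sets and 19775 genes on the array. KRT81, a hair keratin, had 0 probe sets under this rule and was not analysed here.

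RNA came from T47D, an established line of human breast cancer cells with estrogen receptor α. The cells spent 4 h in medium with 10% charcoal-stripped serum, which is depleted of steroid hormones, and were then kept for 3 h with 1 µM estradiol, with 1 µM ERα17p or with 0.1% ethanol as vehicle. Estradiol is the natural ligand of the receptor, and ERα17p is a synthetic peptide that copies a short stretch of it. Each group was 1 array of 1 line, so the spread between cultures is unknown and differences carry no p-value. The ethanol share is given for the vehicle cells alone, so the solvent of the treated cells is unknown here.

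Keratins build the intermediate filaments of epithelial cells. A filament forms only when a type I (acidic) keratin pairs with a type II (basic) keratin, and epithelia differ in the pairs they make. KRT8 and KRT18 are the standard pair of simple epithelia such as the luminal lining of the breast, where KRT7 and KRT19 are also made, whereas KRT10, KRT13 and KRT15 belong to stratified epithelia. KRT13 and KRT19 are known as estrogen-responsive genes in breast cancer cells. The type I members measured were KRT10, KRT13, KRT15, KRT18, KRT19 and KRT23, and the type II members were KRT7, KRT8 and KRT80.

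The deposited values are log expression values, taken here as log2. They lie around 0, because each probe set was set relative to a baseline that is not stated. A value therefore shows where an array stood within 1 probe set, and levels of different keratins or probe sets cannot be compared. Whether the line's luminal markers were abundant cannot be read from them for the same reason. A difference of 1 on this scale is 2-fold if the log base is 2, and a difference of 0.58 is 1.5-fold.

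The arrays were not alike in the spread of their values, which depends on the unstated baseline, or in their control probe sets. Over all 41091 probe sets the values had an SD of 0.157 for estradiol and 0.165 for ERα17p, against 0.446 for vehicle. The 3′ less the 5′ control probe set of ACTB stood at −0.29 for estradiol and −0.17 for ERα17p, against 0.52 for vehicle. For GAPDH it was −0.10 and 0.01, against 0.39, and the mean of the 18S control probe sets was 0.11 and −0.01, against −1.76 for vehicle. These features of the vehicle array move with every difference from vehicle given below, and their part in those differences was not tested. The ERα17p minus estradiol differences do not use the vehicle array.

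RefSeq promoter sequence was given for 2 of the 10 keratins, KRT8 and KRT10, which stand for both patterns described below. KRT10 was higher on both treated arrays than on the vehicle array, and KRT8 was highest on the estradiol array and lowest on the ERα17p array. Shown are the 250 bases before the start site on the minus strand, read 5′ to 3′, in build GRCh38.p14. The KRT10 stretch is chr17:40822615-40822864 and the KRT8 stretch is chr12:52926470-52926719. For KRT8 this start site lies inside the span of the gene record and is not its outermost one. Capitals mark TATAAA and GGTCA, searched on both strands.
KRT10: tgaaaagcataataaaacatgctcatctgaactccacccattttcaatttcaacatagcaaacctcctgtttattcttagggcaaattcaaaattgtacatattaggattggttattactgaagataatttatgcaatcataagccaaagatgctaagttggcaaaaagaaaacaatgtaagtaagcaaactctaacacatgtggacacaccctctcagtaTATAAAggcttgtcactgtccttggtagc
KRT8: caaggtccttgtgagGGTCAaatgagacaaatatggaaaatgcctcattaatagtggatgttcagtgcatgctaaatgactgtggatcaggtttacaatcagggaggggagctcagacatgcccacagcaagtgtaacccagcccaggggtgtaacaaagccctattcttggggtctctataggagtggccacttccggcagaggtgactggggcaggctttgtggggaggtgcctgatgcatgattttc

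TATAAA, the core of the TATA box, was found 29 bases before the start site of KRT10 and not in the KRT8 stretch. Of 35116 promoters of the same length, 10.7% held it. GGTCA, a single arm of the estrogen response element, was found 235 bases before the start site of KRT8 and not in the KRT10 stretch, and 32.6% of all promoters held it. Neither stretch held the full element (GGTCA, any 3 bases, then TGACC), the AP-1 site TGANTCA or the Sp1 box GGGCGG, which 0.0399%, 6.57% and 42.6% of all promoters held. The full element contains GGTCA, so these counts overlap. These are letter matches, not measured binding.

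**Figure D1:**
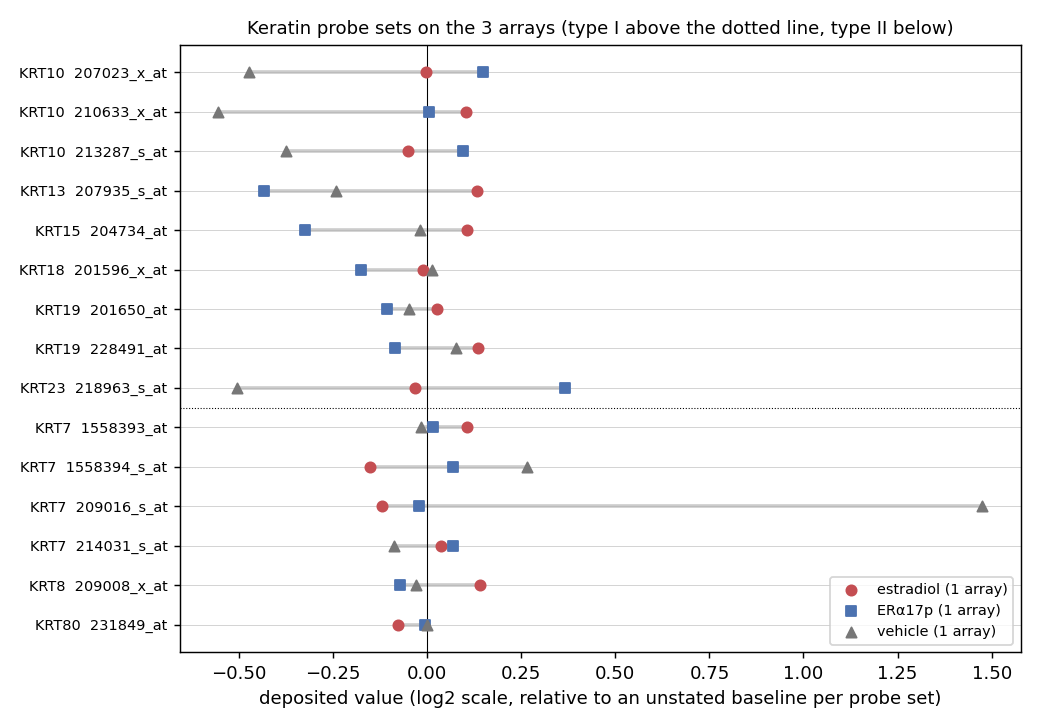
Deposited values (log2 scale, relative to an unstated baseline per probe set) of the 15 keratin probe sets, 1 point per array, with type I keratins above the dotted line and type II below; the grey bar spans the 3 arrays. One KRT7 probe set stands at 1.48 on the vehicle array, and the 3 KRT10 probe sets and KRT23 have their lowest values there.

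Against the vehicle array, the keratins as a set showed few large differences on either treated array. At least 2-fold higher were 0 of the 15 probe sets with estradiol, where 3.79% of all probe sets were, and 0 with ERα17p, where 3.99% of all were. At least 2-fold lower was 1 probe set, of KRT7, with each agent, where 2.34% of all probe sets were for estradiol and 2.66% for ERα17p. A count of 1 in 15 is too small to set the keratins apart from those shares. The median difference over the 15 probe sets was 0.12 for estradiol, beside 0.01 over all probe sets. It was −0.04 for ERα17p, beside 0.01 over all, and the mean for ERα17p lay on the other side of 0, at 0.0041.

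**Figure D2:**
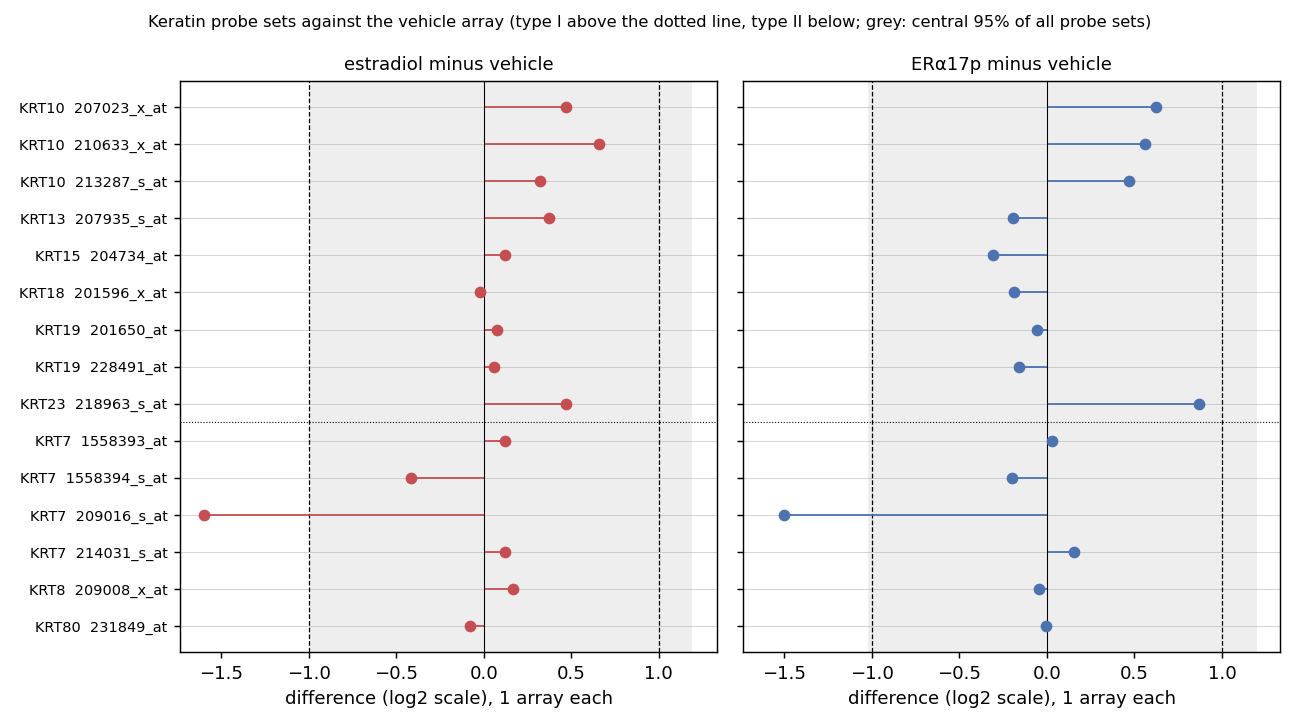
Difference from the vehicle array (log2 scale) of each keratin probe set, for estradiol on the left and ERα17p on the right, 1 array each. The grey band is the central 95% of all probe sets and the dashed lines mark 2-fold. Only the KRT7 probe set at −1.59 for estradiol and −1.50 for ERα17p lies outside the band.

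KRT7, a type II keratin of glandular and ductal epithelia, had 4 probe sets, and they did not move together. Probe set 209016_s_at stood at −0.12 with estradiol and −0.02 with ERα17p, against 1.48 with vehicle. Its difference from vehicle was −1.59 for estradiol, a fold size of 3.02, and −1.50 for ERα17p, a fold size of 2.82. Only 0.224% of all probe sets were at least this low for estradiol, and 0.402% for ERα17p. The vehicle array alone was high, and both treated arrays lay within 0.10 of each other.

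The other KRT7 probe sets showed no such value on the vehicle array. Probe set 1558394_s_at stood at −0.15 with estradiol and 0.07 with ERα17p, against 0.27 with vehicle. Probe set 214031_s_at stood at 0.04 with estradiol and 0.07 with ERα17p, against −0.09 with vehicle. Probe set 1558393_at stood at 0.11 with estradiol and 0.02 with ERα17p, against −0.02 with vehicle. The vehicle array was thus the highest in 2 of the KRT7 probe sets and the lowest in the other two.

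The mean difference of KRT7 was −0.44 ± 0.81 for estradiol and −0.38 ± 0.76 for ERα17p (SD over n = 4 probe sets), so it was smaller than the spread between its own probe sets. Without 209016_s_at the mean was −0.06 ± 0.31 for estradiol and 0.00 ± 0.18 for ERα17p (SD over n = 3 probe sets), a step chosen after the values were seen. Among the 1393 genes with 4 probe sets, 6.17% had an SD at least as large as KRT7 for estradiol minus vehicle, and 7.75% for ERα17p minus vehicle. Between ERα17p and estradiol, where the vehicle array is not used, the SD of KRT7 was 0.13 and 70.4% of those genes had one at least as large. The gene segment that each probe set reads was not analysed here, so no KRT7 value can be preferred.

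The other type II keratins differed little between arrays. KRT8, the type II partner in the simple-epithelial pair, stood at 0.14 with estradiol and −0.07 with ERα17p, against −0.03 with vehicle. Its differences from vehicle were 0.17 for estradiol and −0.04 for ERα17p. KRT80, a more widely expressed type II keratin, stood at −0.08 with estradiol and 0.00 with ERα17p, against 0.00 with vehicle. KRT80 had the smallest range over the arrays of all 15 probe sets, at 0.08.

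KRT10 and KRT23, both type I, were lower on the vehicle array than on either treated array in each of their probe sets. KRT10 is the keratin of the differentiated layers of the epidermis. Its probe set 210633_x_at stood at 0.10 with estradiol and 0.00 with ERα17p, against −0.56 with vehicle. Probe set 207023_x_at stood at 0.00 with estradiol and 0.15 with ERα17p, against −0.47 with vehicle. Probe set 213287_s_at stood at −0.05 with estradiol and 0.10 with ERα17p, against −0.37 with vehicle.

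All 3 KRT10 probe sets thus had both treated arrays above the vehicle array. That array was the lowest in 6 of the 15 keratin probe sets, 40.0%, and in 41.5% of all probe sets, so this was near the share over the whole array. The mean difference was 0.48 ± 0.17 for estradiol and 0.55 ± 0.08 for ERα17p (SD over n = 3 probe sets). These SDs were below the median SD of 0.30 and 0.29 among the 2780 genes with 3 probe sets. All 3 KRT10 probe sets carry identifiers of a kind open to cross-hybridisation, and they may read shared sequence, so their likeness is not independent support. The probe set of the antisense gene KRT10-AS1 differed by −0.09 for estradiol and −0.14 for ERα17p.

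KRT23, a type I keratin that inhibitors of histone deacetylases are known to induce in cancer cells, stood at −0.03 with estradiol and 0.37 with ERα17p, against −0.50 with vehicle. The difference from vehicle was 0.47 for estradiol and 0.87 for ERα17p, a fold size of 1.39 and 1.83. At least as high were 14.0% of all probe sets for estradiol and 5.43% for ERα17p. KRT23 was the member highest above vehicle with ERα17p. At the smaller size of 1.5-fold, 1 of the 15 probe sets was higher with estradiol (KRT10, 210633_x_at), where 10.4% of all were. With ERα17p, 2 were higher (KRT23 and KRT10, 207023_x_at), where 10.5% of all were. At least 1.5-fold lower was the same KRT7 probe set alone with each agent, where 9.99% of all were for estradiol and 10.1% for ERα17p.

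A second group of keratins had the estradiol array highest and the ERα17p array lowest. This order was seen in 5 of the 15 probe sets, those of KRT13, KRT15, KRT8 and both of KRT19, and in 9.59% of all probe sets. In these 5 the 2 agents lay on opposite sides of the vehicle array. In the other 10 both lay on the same side. Over all probe sets the vehicle array lay in the middle, in this order or its reverse, in 19.9%. Over 41 probe sets of keratins outside the set it did so in 31.7%. Among those others only the probe sets of KRT16, KRT24, KRT83 and KRT85 had the same order. The rest with the vehicle array in the middle had the reverse order. The order was noticed in the values, and in the 5 member probe sets each difference behind it was below 1.5-fold.

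KRT13, a type I keratin of internal stratified epithelia, showed the order with the widest range among the measured members. It stood at −0.43 on the ERα17p array, against 0.13 on the estradiol array, with −0.24 on the vehicle array. The difference between ERα17p and estradiol was −0.57, a fold size of 1.48, and 1.31% of all probe sets were at least as low. From vehicle KRT13 differed by 0.37 for estradiol and −0.19 for ERα17p.

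KRT15, a type I keratin of basal cells in stratified epithelia, stood at −0.33 on the ERα17p array, against 0.11 on the estradiol array, with −0.02 on the vehicle array. The ERα17p minus estradiol difference was −0.43, and 3.25% of all probe sets were at least as low. In KRT15 the vehicle array lay nearer to the estradiol array.

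KRT19, a short type I keratin that lacks the usual tail, had 2 probe sets that gave the same order. Probe set 228491_at stood at −0.08 on the ERα17p array, against 0.13 on the estradiol array, with 0.08 on the vehicle array. Probe set 201650_at stood at −0.11 on the ERα17p array, against 0.03 on the estradiol array, with −0.05 on the vehicle array. The ERα17p minus estradiol mean was −0.18 ± 0.06 (SD over n = 2 probe sets), larger than the spread between both sets but a small difference. KRT18, the type I partner of KRT8, stood at −0.18 on the ERα17p array, against −0.01 on the estradiol array, with 0.01 on the vehicle array. The difference between ERα17p and estradiol was −0.17 for KRT18 and −0.21 for KRT8.

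**Figure D3:**
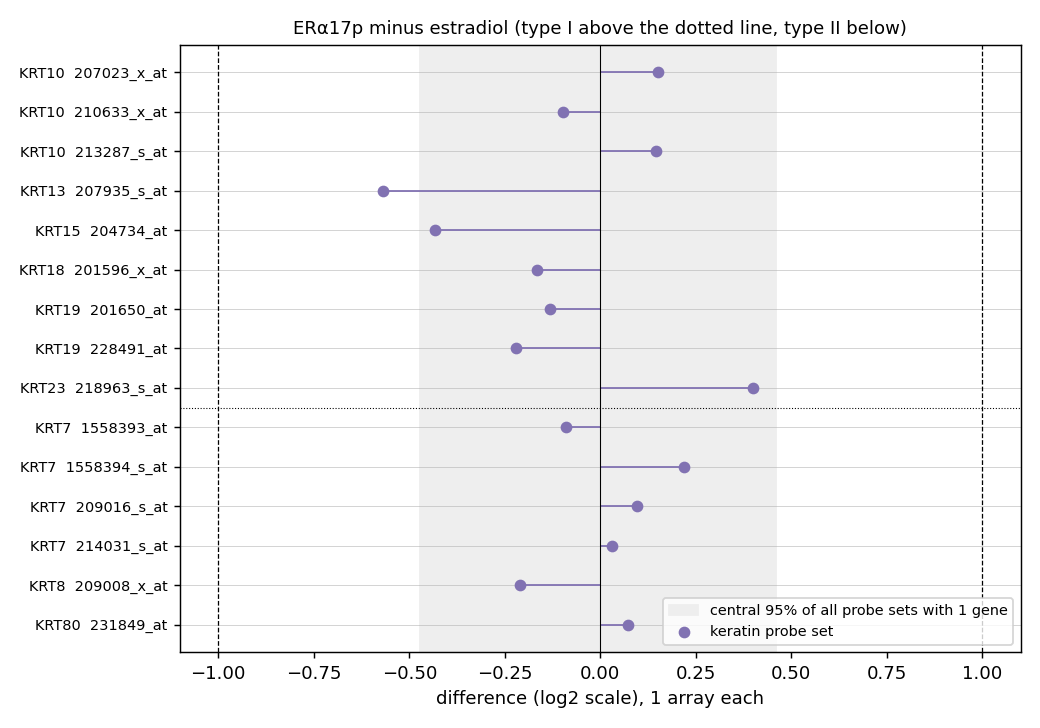
ERα17p minus estradiol difference (log2 scale) of each keratin probe set, 1 array each, with the central 95% of all probe sets in grey and 2-fold at the dashed lines. KRT13 at −0.57 is the one probe set shown that lies outside the band, KRT15 lies at −0.43 and KRT23 at 0.40.

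Between ERα17p and estradiol 0 of the 15 probe sets were at least 2-fold higher, where 0.073% of all probe sets were, and 0 were at least 2-fold lower, where 0.129% were. At 1.5-fold the counts were also 0 higher and 0 lower, beside 0.891% and 1.14% of all. The median over the 15 was −0.09 and over the 9 genes −0.17, beside 0.01 over all probe sets and 0.01 over all genes. Lower with ERα17p were 8 probe sets, and 7 were higher, where 51.2% of all probe sets were higher. KRT23 was the highest, at 0.40, and 3.99% of all probe sets were at least as high. The KRT10 probe sets differed by −0.10, 0.15 and 0.15, so KRT10 gave no common direction here. The central 95% of all probe sets ran from −0.47 to 0.46, and of the 15 member probe sets only that of KRT13 lay outside it.

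In the RefSeq gene order KRT13, KRT15 and KRT19 are direct neighbours on chromosome 17, and all were lower with ERα17p than with estradiol. Of all 19775 genes 9569 were also lower and 10199 were higher, so this direction was common over the array. The genes that flank this trio were looked up after the values were seen. They are KRT36, at −0.07 for ERα17p minus estradiol, and KRT9, at −0.01. Of 35 keratin genes outside the set 12 were lower with ERα17p, among them KRT16 at −0.49 and KRT14 at −0.23, and 23 were higher. KRT8 and KRT18 are neighbours on chromosome 12, and KRT80 and KRT7 are neighbours there as well. KRT8 and KRT18 were both lower with ERα17p, while KRT80 and KRT7 differed by 0.07 and 0.06 ± 0.13 (SD over n = 4 probe sets). KRT10 and KRT23 are on chromosome 17 but are not neighbours of each other.

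The remaining keratins of the array, 35 genes with 41 probe sets, gave the family's own comparison. At least 2-fold different were 0 of the 35 in any comparison. As shares of all genes, estradiol had 1.57% at least 2-fold higher than vehicle and 1.63% lower. ERα17p had 1.90% higher than vehicle and 1.87% lower, and 0.0607% higher than estradiol and 0.086% lower. Their median was 0.03 for estradiol, 0.07 for ERα17p and 0.09 for ERα17p minus estradiol, against which the 9 epithelial keratins had 0.12, −0.11 and −0.17. Differences of at least 1.5-fold were shown by KRT33B, a hair keratin, at 0.75 for ERα17p minus vehicle. They were also shown by KRT83 at −0.72 and KRT77 at 0.61 for ERα17p minus estradiol, all named after their values were seen. The vehicle array did not have the widest spread over these other keratin probe sets, at an SD of 0.153 for estradiol and 0.171 for ERα17p, against 0.166 for vehicle. Over the 15 epithelial keratin probe sets these SDs were 0.0962 and 0.191, against 0.480, and without the 1 KRT7 probe set they were 0.0911 and 0.198, against 0.246.

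**Figure D4:**
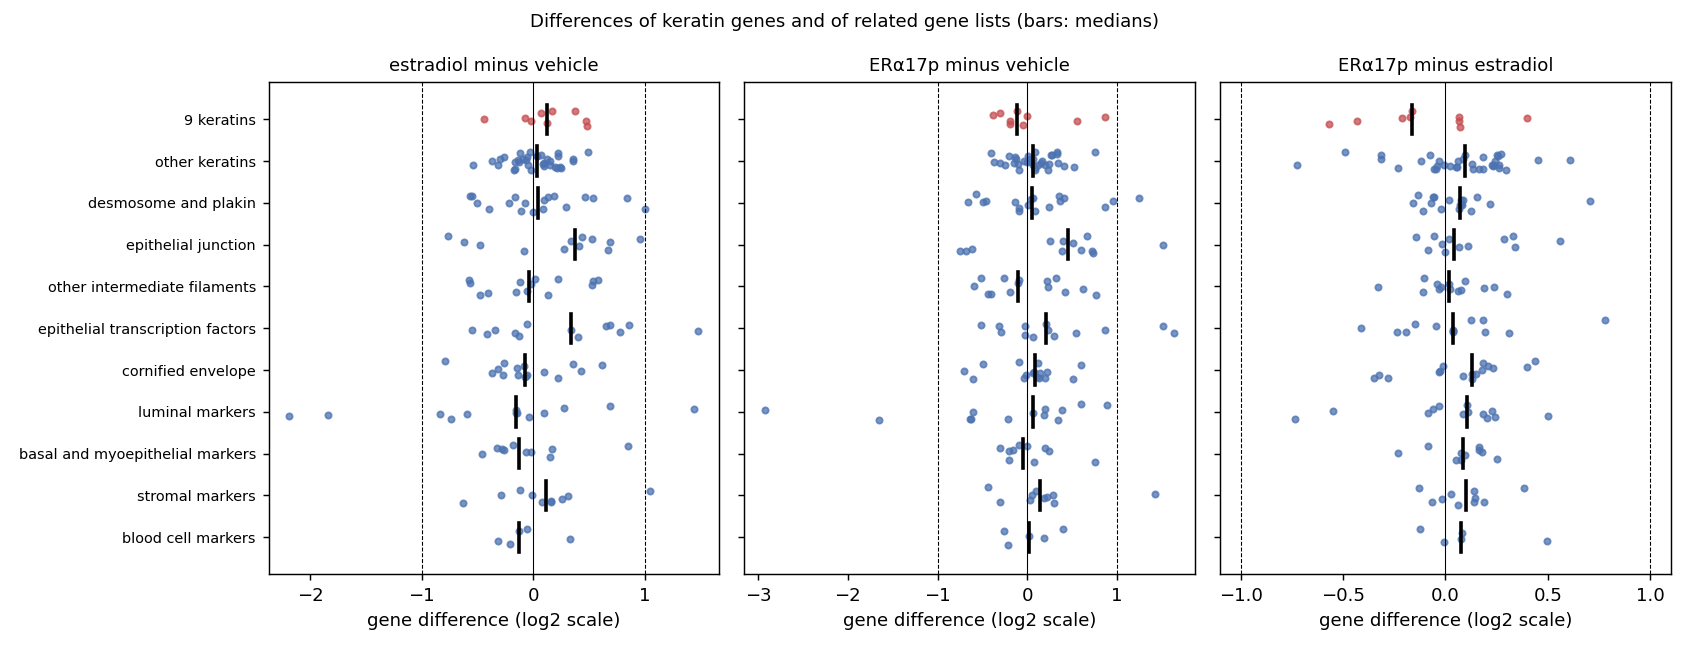
Gene differences (log2 scale) for the 9 measured epithelial keratins in red and for related gene lists in blue, 1 point per gene, with the median as a black bar and 2-fold at the dashed lines. Against vehicle 1 or 2 genes of the desmosome, transcription factor and stromal lists, up to 3 luminal markers, and for ERα17p 1 junction gene lie past 2-fold, and the 9 epithelial keratins lie between −0.44 and 0.87.

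Genes that work with keratins in epithelial cells were set beside them as lists. Desmosomal and plakin genes anchor keratin filaments at cell contacts, and all 18 were measured. With each agent 1 of the 18 passed 2-fold upward from vehicle, beside 1.57% of all genes for estradiol and 1.9% for ERα17p. Downward 0 passed it, beside 1.63% and 1.87% of all genes. For estradiol the gene past 2-fold was DSC2, a desmosomal cadherin, at 1.004 ± 0.535 (SD over n = 4 probe sets). For ERα17p it was PKP2, a plakophilin, at 1.24 ± 0.82 (SD over n = 2 probe sets). With the other agent both were also above vehicle, DSC2 by 0.87 ± 0.49 for ERα17p and PKP2 by 0.54 for estradiol. PKP2 also had the list's highest ERα17p minus estradiol difference, at 0.70 ± 0.30. The list median was 0.04 for estradiol and 0.05 for ERα17p.

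Adherens and tight junction genes had a median of 0.37 for estradiol and 0.46 for ERα17p over 12 measured of 15 listed. For estradiol 3 were higher and 2 lower by 1.5-fold or more, and for ERα17p 5 were higher and 3 lower. CLDN1, a claudin of tight junctions, differed from vehicle by 0.96 ± 0.22 for estradiol and 1.51 ± 0.54 for ERα17p. CLDN3 differed by −0.77 ± 0.21 and −0.75 ± 0.25 (SD over n = 2 probe sets for each gene). As shares of all genes, estradiol had 6.48% at this size above vehicle and 8.42% below it, and ERα17p had 6.88% above and 8.76% below.

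Transcription factors and splicing factors of epithelial programmes had a median of 0.34 for estradiol and 0.21 for ERα17p over 13 measured of 15 listed. At least 1.5-fold higher were 5 with estradiol, beside 6.48% of all genes, and 3 with ERα17p, beside 6.88%. Lower by this size were 0 with each agent, beside 8.42% and 8.76% of all genes. GRHL1 differed from vehicle by 1.48 ± 0.86 for estradiol and 1.51 ± 0.65 for ERα17p (SD over n = 2 probe sets), and GRHL3 by 0.86 and 1.64. GRHL2, of the same Grainyhead-like family, differed from vehicle by 0.78 and 0.54. GRHL3 was also higher with ERα17p than with estradiol, by 0.78, whereas GRHL2 differed by −0.24. As array values, GRHL1 stood at 0.05 with estradiol and 0.09 with ERα17p, against −1.43 with vehicle. GRHL3 stood at 0.05 and 0.83, against −0.81.

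Other intermediate filament genes, such as vimentin-like proteins and lamins, had 0 of 14 at 2-fold in any comparison, with medians of −0.04 for estradiol and −0.10 for ERα17p. Genes of the cornified envelope, the end product of squamous differentiation, had 0 of 16 at 2-fold and medians of −0.08 and 0.09. Some luminal markers other than keratins had wide differences, but the list medians were −0.16 for estradiol and 0.06 for ERα17p. Of 13 genes estradiol had 1 above vehicle by 2-fold or more and 2 below, beside 1.57% and 1.63% of all genes. ERα17p had 0 above and 2 below, beside 1.9% and 1.87%. TFF1, a secreted trefoil protein, differed from vehicle by −2.19 and −2.92, and TFF3 by −1.84 and −1.66. As array values, TFF1 stood at 0.03 with estradiol and −0.71 with ERα17p, against 2.22 with vehicle. TFF3 stood at −0.22 and −0.03, against 1.63. PGR, the progesterone receptor, differed by 1.44 ± 0.28 and 0.88 ± 0.04 (SD over n = 2 probe sets). These genes had the list's largest differences from vehicle.

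Markers of other cell types were checked as lists, because keratins are themselves cell type markers. Basal and myoepithelial markers had 10 of 14 measured, with medians of −0.13 for estradiol and −0.05 for ERα17p, and 0 at 2-fold. EGFR, a growth factor receptor, was the list's one member past 1.5-fold, at 0.85 ± 0.99 for estradiol and 0.76 ± 0.85 for ERα17p (SD over n = 9 probe sets). Of all genes 6.48% were at least 1.5-fold above vehicle for estradiol and 6.88% for ERα17p. For ERα17p minus estradiol 8 of the 10 markers lay above 0, with a median of 0.09, beside 51.6% and a median of 0.01 over all genes. The basal keratins of this list differed there by 0.05 for KRT5 and −0.23 for KRT14. Of 10 stromal markers 1 was 2-fold higher with each agent, beside 1.57% of all genes for estradiol and 1.9% for ERα17p. It was LUM, at 1.05 ± 0.97 and 1.43 ± 1.53 (SD over n = 2 probe sets). Of 7 blood cell markers 5 were measured, and 0 were at 2-fold. Since the values hold no absolute level, the presence of such cells cannot be read from them.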

How the data were processed

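Biotin-labelled total RNA was read on 3 Affymetrix HG-U133 Plus 2 arrays, 1 each for estradiol, ERα17p and vehicle, per the labels' protocols. Arrays were grouped by their labels. The authors deposited log2 expression values, and the submitters' processing notes name RMA. Its version, the log base and the centring step are not stated there or in the labels. The base was taken as 2 because RMA gives log2 values. Of 54675 probe sets, 62 were controls, 41091 had 1 gene in the platform annotation, 1801 had several and 11721 were not listed there. The gene identifiers of the 9 measured keratins matched their current RefSeq records.

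From these values each agent was set against vehicle, and ERα17p against estradiol, as differences per probe set. Probe sets of 1 gene were averaged, with the SD over them as the spread. With 1 array per group there was no test, and the number of arrays limits the precision. Probe sets were counted at 2-fold, with 1.5-fold as an alternative, beside the share of all probe sets. Other alternatives were centring, leaving out probe sets whose identifier ends in _x_at or _s_at, medians and means exchanged, and genes in place of probe sets. The rule named all epithelial keratins with every probe set, other keratins at 2-fold, which none reached, and up to 3 genes of each related list per comparison. Named outside it, after their values were seen, were KRT33B, KRT83, KRT77, KRT36, KRT9, KRT5, KRT16, KRT24, KRT85 and KRT10-AS1. The same holds for the pseudogenes, PKP2 for estradiol and GRHL2 beyond estradiol. The keratins and the lists were chosen with earlier results of these data known. Python 3.11.15, numpy 2.4.6, pandas 2.3.3 and matplotlib 3.10.9 were used, and the computation was tested on simulated data.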

Additional observations from a re-analysis of the deposited data

How the results depend on the processing

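No paired analysis was possible because each group had 1 array, and for the same reason no replicate was left out. Of 45 alternatives for counts and medians over the keratins, 39 left a count within 1.5 times or a median within the SD over the keratins, a wide limit. For estradiol the probe set median of 0.12 became 0.07 without probe sets ending in _x_at or _s_at and 0.06 as a mean. For ERα17p the gene median of −0.11 became −0.06 without those probe sets, and the probe set median of −0.04 became 0.0041 as a mean and −0.02 without the KRT7 probe set. For ERα17p minus estradiol the median of −0.09 became −0.05 as a mean. The other 6 were counts. At 1.5-fold in place of 2-fold, 1 keratin probe set was higher with estradiol and 2 with ERα17p. The 1 probe set that was 2-fold lower with each agent, of KRT7, became 0 without probe sets ending in _x_at or _s_at, which removed it and left 5 probe sets of 4 genes, and 0 when genes replaced probe sets. Of 42 alternatives for single keratins 30 could not differ by construction. Among the other 12, all of KRT7 or KRT10, 1 moved beyond the spread of its probe sets, KRT7 for ERα17p minus estradiol, at −0.09 on its 1 remaining probe set in place of 0.06. Without those probe sets no value was left for 5 keratins, KRT8, KRT10, KRT13, KRT18 and KRT23, so both members low on the vehicle array rest on them. The values hold no absolute level, so the share of keratins above background is unknown.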

Other observations

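Probe sets of keratin pseudogenes lay outside the members, since their annotation names the pseudogene. KRT8P12, a processed copy of KRT8, had 2 of them, and they disagreed. Probe set 222060_at stood at 0.02 with estradiol and −0.02 with ERα17p, against 0.78 with vehicle. Probe set 230116_at stood at 0.60 with estradiol and 0.04 with ERα17p, against −0.17 with vehicle. The single KRT8 probe set had differences from vehicle of 0.17 for estradiol and −0.04 for ERα17p. KRT19P2 and KRT17P5 had 1 probe set each and differed from vehicle by −0.01 and 0.12 for estradiol and by 0.01 and 0.13 for ERα17p.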
